A study of Mus musculus with 15 samples.

Results

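Expression of 8 genes of the cGAS-STING pathway was followed across RNA-sequencing libraries of CT26 cells, a mouse colon tumor line, after loss or inhibition of the arginine methyltransferase PRMT1. They were taken by symbol from the 34432 genes listed in each expression table, and all 8 were found in both tables: Cgas, Sting1, Tbk1, Ikbke, Irf3, Trex1, Samhd1 and Enpp1. The study held 15 libraries in 2 experiments, with 3 libraries in each of 5 groups. In the knockdown experiment, CT26 cells with a control hairpin (shControl) were compared with CT26 cells carrying a doxycycline-inducible hairpin against Prmt1 (shPrmt1), which per the study's methods were given doxycycline for 3 days. In the inhibitor experiment, wild-type CT26 cells received vehicle, MS023 or GSK3368715, and both compounds, which inhibit the type I arginine methyltransferases and not PRMT1 alone, were used at 6 µM for 48 h. Whether the shControl cells also received doxycycline was not given in the sources used here. The study's methods say in general terms that data rest on independent experiments or biological replicates, but no label says whether the 3 libraries of a group came from separate cultures, so p-values measure the spread between these libraries, which may be technical. The question put to the data was whether transcripts of the pathway itself changed when PRMT1 was lost or inhibited.

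cGAS binds double-stranded DNA in the cytosol and makes the second messenger cGAMP, which binds STING on the endoplasmic reticulum. STING then moves toward the Golgi and recruits the kinase TBK1, which phosphorylates the transcription factor IRF3, and IRF3 enters the nucleus to switch on type I interferon and a set of antiviral genes; IKKε, the product of Ikbke, can act beside TBK1. Much of this control acts on the proteins, and the brakes on the pathway lie upstream: TREX1 degrades cytosolic DNA, SAMHD1 hydrolyzes deoxynucleotides and helps to clear nascent DNA at stalled forks, and ENPP1 hydrolyzes cGAMP outside the cell.

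IRF factors bind a tandem GAAA repeat known as the interferon-stimulated response element, so promoters of the genes were searched for the letters GAAANNGAAA on both strands. RefSeq promoter entries (GRCm38.p6, the assembly of mm10) of 300 bases, 250 before and 50 after the start site, were matched for 7 of the 8 members, with 2 entries for Trex1. Sting1 had no matched entry, so its promoter was not searched. The repeat was found in 0 of these 8 member promoters, in promoters of 5 of the 8 IRF3 target genes that had an entry (Cxcl10, Ifit1, Ifit3, Isg15 and Rsad2), and in 3.44% of all 32851 promoters in the table. The 250 bases before the start of a member that rose with both inhibitors (Samhd1, chr2:157135097-157135346, minus strand), of the sensor itself (Cgas, chr9:78443238-78443487, minus strand), and of 2 target genes (Isg15, chr4:156200819-156201068, minus strand, and Ifit1, chr19:34640639-34640888, plus strand) are shown 5′ to 3′ on the gene's strand, with the repeat in capitals.
Samhd1: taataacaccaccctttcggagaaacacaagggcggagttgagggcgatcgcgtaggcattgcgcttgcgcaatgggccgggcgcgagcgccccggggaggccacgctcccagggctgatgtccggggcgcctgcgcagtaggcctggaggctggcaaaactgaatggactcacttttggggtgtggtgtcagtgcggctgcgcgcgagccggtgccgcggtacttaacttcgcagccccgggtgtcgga
Cgas: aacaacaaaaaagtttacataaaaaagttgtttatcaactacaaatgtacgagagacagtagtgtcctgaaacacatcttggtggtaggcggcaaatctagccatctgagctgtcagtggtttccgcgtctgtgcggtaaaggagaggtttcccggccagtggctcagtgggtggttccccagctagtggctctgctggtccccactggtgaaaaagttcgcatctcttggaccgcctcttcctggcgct
Isg15: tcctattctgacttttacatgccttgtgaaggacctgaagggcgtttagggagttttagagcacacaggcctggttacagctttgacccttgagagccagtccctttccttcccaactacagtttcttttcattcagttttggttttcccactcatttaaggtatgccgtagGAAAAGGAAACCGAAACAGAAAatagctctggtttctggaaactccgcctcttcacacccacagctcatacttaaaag
Ifit1: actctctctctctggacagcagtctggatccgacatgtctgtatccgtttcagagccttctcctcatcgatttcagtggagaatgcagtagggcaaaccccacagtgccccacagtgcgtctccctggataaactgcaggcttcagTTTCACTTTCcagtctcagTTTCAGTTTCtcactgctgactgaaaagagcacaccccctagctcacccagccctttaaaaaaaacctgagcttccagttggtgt
Isg15 holds 3 overlapping copies of the repeat and Ifit1 holds 2 copies on the opposite strand, whereas the Samhd1 and Cgas windows are in lower case throughout. Of 2 further motifs searched on both strands, the GAS letters TTCNNNGAA, which STAT factors bind, were found in Samhd1 alone among the 7 members searched (8.3% of all promoters) and the kappa B motif in Trex1 and Enpp1 (8.46% of all promoters). A match is a description of the sequence, and its absence says only that these letters are not in this window.

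In the mm10 annotation (GENCODE M21), Cgas lies at chr9:78430526-78443237, Tbk1 at chr10:121546455-121586787, Ikbke at chr1:131254343-131279606, Trex1 at chr9:109057933-109059734, Samhd1 at chr2:157097533-157135265 and Enpp1 at chr10:24637914-24712159, all on the minus strand. Irf3 lies on the plus strand at chr7:44997648-45002848, close to Prmt1 itself on the same chromosome (chr7:44975989-44986568). Sting1, called Tmem173 in that annotation, lies on the minus strand at chr18:35733679-35740554. The annotated exons of Trex1, 1147 bp in all, lie entirely within exons of Atrip on the same strand, so reads of these 2 genes can be told apart only by the quantification, and Trex1 was treated as uncertain. Irf3 shares 88 bp of exon with Bcl2l12 on the opposite strand and Cgas 201 bp with the pseudogene Gm8093, which had at most 1 read in a library; whether the counting used strand was not given in the sources used here.

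Between 17284091 and 29233738 reads per library fell on genes in the knockdown experiment and between 40119305 and 93697833 in the inhibitor experiment. Prmt1 stood at 5601, 5717 and 5620 normalized counts in shControl and at 669, 761 and 683 in shPrmt1, or 0.125 of the control level (95% log2 interval -3.16 to -2.85, adjusted p = 3.79e-07 in limma), and did not pass the test with MS023 (-0.07) or GSK3368715 (-0.01). Library shPrmt1 2 stood apart: its log2 values lay on average 0.185 from the mean of its group, against 0.134 for shPrmt1 1 and 0.123 for shPrmt1 3. Among the vehicle libraries, 1 and 2 lay farther from their mean (0.154 and 0.152) than 3 (0.117). CT26 cells are labelled as colon tumor cells, and of 7 intestinal epithelial markers Krt18 and Krt20 passed the filter on low values in both experiments (Krt18 means of 572 in shControl and 941 in vehicle) and Krt8 and Cdx2 in the inhibitor experiment alone. Epcam was at 0 reads in every library, and Cdh1 and Vil1 failed the filter in both experiments. All 4 fibroblast markers passed it. Of 6 macrophage and leukocyte markers, Cd68 alone passed, and no library had more than 8 reads of any of the other 5. The 2 tables were normalized separately, so values are compared within an experiment only.

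Samhd1 and Tbk1 were the most abundant members in untreated cells and Ikbke the least abundant of the 7 that were detected. Per kilobase of exon, the shControl mean was 419 ± 15.6 normalized counts (SD, n = 3) for Samhd1, 357 ± 26.1 for Tbk1, 202 ± 12.3 for Cgas, 173 ± 4.87 for Sting1, 159 ± 9.92 for Irf3, 57.4 ± 21.2 for Trex1 and 19.6 ± 3.55 for Ikbke. Neighbors in this order did not overlap between libraries, except Sting1 and Irf3. In vehicle the per-kilobase means were 1712 ± 57.9 for Samhd1, 1084 ± 57.3 for Tbk1, 596 ± 17.6 for Sting1, 559 ± 32.7 for Cgas, 515 ± 57.3 for Irf3, 380 ± 92.3 for Trex1 and 93.5 ± 12.5 for Ikbke. Here Samhd1 and Tbk1 again stood clear of the rest and Ikbke clear below them, whereas Sting1, Cgas and Irf3 each overlapped the next gene in the order. On this scale Samhd1 lay above 86.3% of all genes tested in vehicle, Cgas above 61.5% and Ikbke above 25.5%.

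**Figure D1:**
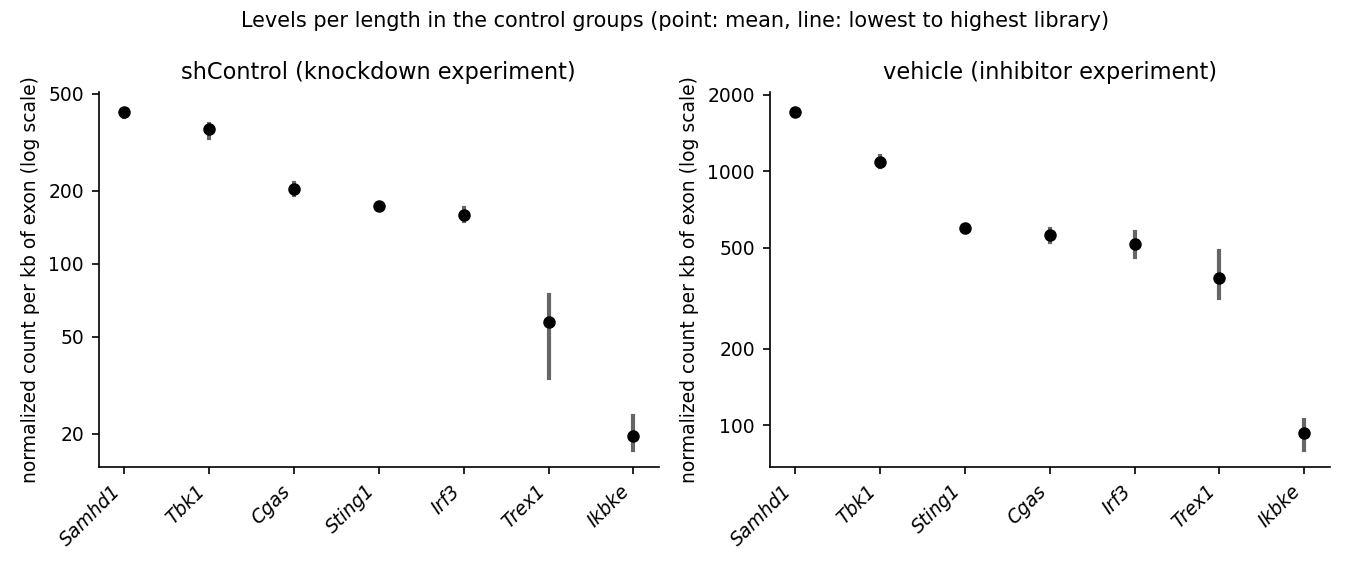
Levels of 7 members in the 2 control groups, as normalized counts per kilobase of exon on a log axis; points are means of 3 libraries and lines run from the lowest to the highest library. Samhd1 is the highest and Ikbke the lowest in both experiments, and Enpp1, at or near 0, is not drawn.

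Enpp1, the cGAMP hydrolase, was at the edge of detection in these cells. It had 1 read in all 6 libraries of the knockdown experiment together (exact 95% Poisson interval 0.0253 to 5.57 reads) and 5 reads in all 9 inhibitor libraries (interval 1.62 to 11.7). No library held more than 2 reads, and the gene failed the filter in both experiments. The intervals cover counting error only. Enpp1 was therefore not tested, and a difference between groups was not detectable at this depth.

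In the knockdown, 0 of the 7 members tested passed the test, while 14.7% of all 11485 genes did (7.5% higher). The test was limma on log2(normalized count + 1) with Benjamini-Hochberg adjustment over all genes tested and a threshold of 0.05, and genes past it are said to be called. With edgeR and with DESeq2 on whole reads the count was also 0, and by each of the 3 tools 1 member, Sting1, had an unadjusted p under 0.05. No member had groups that did not overlap, against 38% of all genes tested. In bulk cultures fewer cells of a type and less RNA per cell cannot be told apart. The median log2 fold change of the 7 members was 0.11, beside -0.004 over all genes tested.

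Sting1, the cGAMP receptor, stood at 463, 469 and 489 normalized counts in shControl and at 632, 484 and 637 in shPrmt1. Libraries 1 and 3 of shPrmt1 lay above every control, whereas shPrmt1 2 lay among them. The log2 fold change was 0.29 (95% interval 0.02 to 0.56, adjusted p = 0.131), and without shPrmt1 2 it was 0.42 with adjusted p = 0.00426, so that 1 library decided whether Sting1 was called. Cgas stood at 890, 824 and 791 in shControl and at 844, 1039 and 831 in shPrmt1, with a log2 fold change of 0.11 (-0.12 to 0.34, adjusted p = 0.501). Here shPrmt1 2 was the highest of the 6 libraries, and the other pair lay within the control range.

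The kinases and the transcription factor had small differences whose intervals include 0. Tbk1 was at 1439, 1471 and 1280 in shControl and at 1323, 1770 and 1449 in shPrmt1 (log2 fold change 0.11, interval -0.15 to 0.36), and its sign turned to -0.01 without shPrmt1 2. Irf3 was at 514, 582 and 548 against 574, 388 and 531 (-0.16, interval -0.49 to 0.17), and without shPrmt1 2 its fold change was 0.01. Ikbke, at 161, 213 and 155 against 185, 120 and 154, had a log2 fold change of -0.21 (interval -0.64 to 0.22). In each of these 3 genes shPrmt1 2 was the library at the extreme of its group, highest for Tbk1 and lowest for Irf3 and Ikbke.

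Among the enzymes that clear nucleic acid or its precursors, Samhd1 stood at 3862, 3959 and 3677 in shControl and at 4055, 4848 and 3843 in shPrmt1, a log2 fold change of 0.14 (interval -0.06 to 0.35, adjusted p = 0.314). Once more shPrmt1 2 was the highest library, and shPrmt1 3 lay within the control range. Trex1 was the least precise member, at 85.4, 73.4 and 38.7 in shControl and 78.9, 59.4 and 88.8 in shPrmt1 (0.25, interval -0.43 to 0.94, adjusted p = 0.597), and without shControl 3 its fold change was -0.08. For Trex1 the interval reaches well to either side of 0, and the gene had 35 to 102 reads per library.

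**Figure D2:**
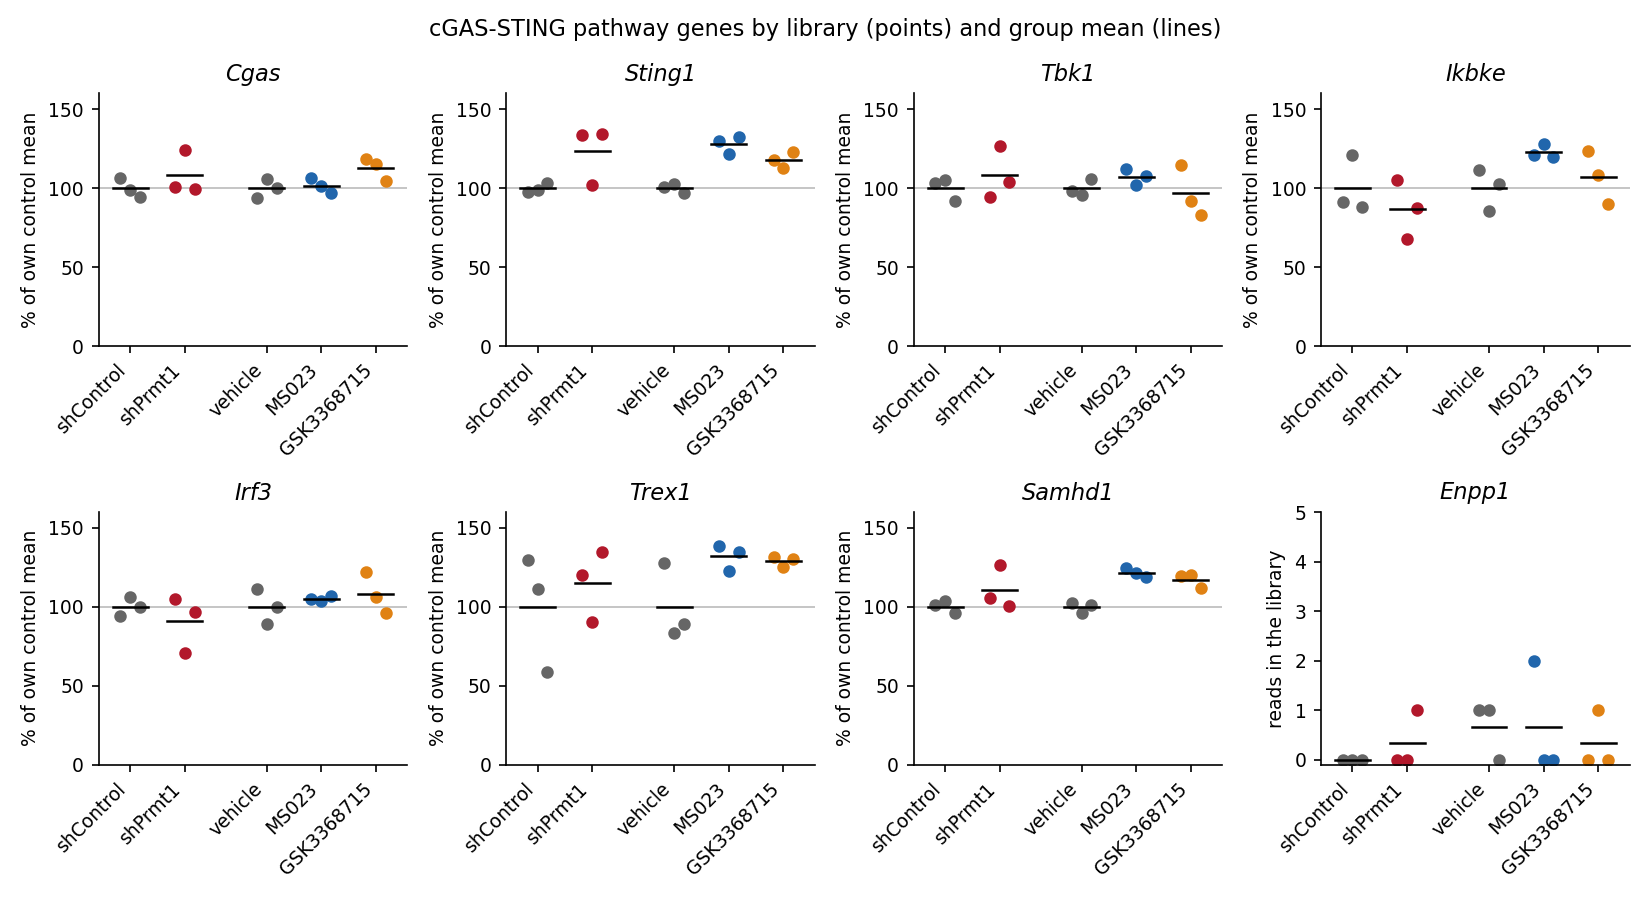
Each member in each library, as a percent of the mean of its own control group (shControl or vehicle) for 7 members and as reads for Enpp1; points are libraries in order of replicate number and lines are means of 3. Sting1 lies at 133.4% and 134.4% in shPrmt1 1 and 3 but at 102.1% in shPrmt1 2, while all 6 inhibitor libraries of Sting1 and Samhd1 lie above every vehicle library.

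MS023 gave higher levels of 3 of the 7 members tested, Sting1, Samhd1 and Trex1, and a lower level of 0. All 7 fold changes were positive, with a median of 0.28 beside 0.003 over all genes. For comparison, 27.9% of all 13014 genes tested were called with MS023, and 13.7% of the genes tested were called higher. Groups did not overlap for 3 members (Sting1, Ikbke and Samhd1), against 44.5% of all genes. The summed level of 7 intestinal epithelial markers, of which 4 passed the filter, also moved, from 1243 to 1412 in vehicle to 1758 to 1851 with MS023 and 1406 to 1591 with GSK3368715, with Epcam at 0. Most of this sum was Krt18 (means of 941 in vehicle, 1372 with MS023 and 1137 with GSK3368715). In the same order Krt8 was at 7.43, 24.0 and 12.8, Krt20 at 389, 405 and 341, and Cdx2 at 15.5, 10.8 and 16.8. The sum of 4 fibroblast markers, most of it Col1a2, was 142100 to 143700 in vehicle, 109500 to 130300 with MS023 and 131700 to 140800 with GSK3368715. Within it the means of Col1a1 (18543 in vehicle, 13071 with MS023, 17227 with GSK3368715) and Col1a2 were lower with both inhibitors, while those of Pdgfra (826, 1091 and 1126) and Pdgfrb (1876, 2471 and 2918) were higher. Their part in the members' differences was not tested.

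Sting1 rose from 1647, 1671 and 1579 normalized counts in vehicle to 2122, 1988 and 2162 with MS023. Every MS023 library lay above every vehicle library. The rise was 1.28-fold (log2 0.36, 95% interval 0.22 to 0.49, adjusted p = 0.00195), and it stayed called in all 20 alternatives computed, with adjusted p between 2.73e-06 and 0.0118. Samhd1 rose from 16078, 15070 and 15856 to 19492, 19004 and 18604, or 1.22-fold (log2 0.28, interval 0.17 to 0.39, adjusted p = 0.00244), and likewise stayed called in all 20. These 2 genes had the lowest p-values of the members.

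Trex1, the DNA exonuclease, was called with less certainty. It stood at 557, 363 and 387 in vehicle and at 602, 535 and 588 with MS023, so that vehicle 1 reached into the MS023 range. The log2 fold change was 0.42 (interval 0.11 to 0.73, adjusted p = 0.0452), and the call was lost in 13 of 21 alternatives, among them edgeR (adjusted p = 0.051) and each removal of a library other than vehicle 1 (adjusted p from 0.0574 to 0.143). With Trex1 and Atrip summed, an alternative chosen after the values were seen, the fold change was 0.12 (adjusted p = 0.234), and Atrip by itself was at -0.06 (adjusted p = 0.631).

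Cgas itself was at 2169, 2439 and 2315 in vehicle and at 2460, 2338 and 2237 with MS023. The 2 groups covered nearly the same range, and the log2 fold change was 0.02 with an interval of -0.13 to 0.18 (adjusted p = 0.827). Tbk1 (0.10, interval -0.12 to 0.32) and Irf3 (0.08, -0.14 to 0.29) were not called either. Irf3 was tight with MS023, at 1859, 1841 and 1893, inside a wider vehicle range of 1581 to 1975. Ikbke went from 941, 721 and 867 to 1021, 1077 and 1009, without overlap, yet it missed the threshold (0.31, interval 0.04 to 0.57, adjusted p = 0.0858); without vehicle 1 it was called (0.39, adjusted p = 0.046).

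GSK3368715, given at the same dose and time, had 2 of the 7 members called higher, Sting1 and Samhd1, and 0 lower. Across all genes 9.64% were called, 5.16% in the higher direction. Groups did not overlap for these same 2 members, against 27.7% of all genes. The median log2 fold change of the members was 0.17, beside 0.0004 over all genes. Both inhibitors were set against the same 3 vehicle libraries, so the results for the 2 compounds are not independent of each other.

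With GSK3368715 Sting1 stood at 1926, 1837 and 2009 normalized counts, above every vehicle library (1.18-fold, log2 0.24, interval 0.10 to 0.37, adjusted p = 0.0355). Samhd1 stood at 18720, 18840 and 17499 and was 1.17-fold higher than in vehicle (log2 0.23, interval 0.12 to 0.34, adjusted p = 0.0185). Both calls were close to the threshold. The Sting1 call was lost in 8 of 20 alternatives, including a fit of the 2 groups alone (adjusted p = 0.0848), the replicate block (0.0655) and removal of vehicle 1 (0.0555), vehicle 3 (0.119), GSK3368715 1 (0.0874), GSK3368715 3 (0.112), MS023 1 (0.0549) or MS023 3 (0.0535). The Samhd1 call was lost in 4 of 20, the fit of the 2 groups alone (0.0608) and removal of vehicle 3 (0.054), GSK3368715 1 (0.0623) or GSK3368715 2 (0.0544).

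Trex1 with GSK3368715 stood at 573, 546 and 567, close to its level with MS023, and its log2 fold change of 0.39 (interval 0.08 to 0.70) had an adjusted p of 0.106. Vehicle 1, at 557, again lay within the treated range, and without it the fold change was 0.58 (adjusted p = 0.00515), while Trex1 and Atrip summed gave 0.10 (adjusted p = 0.393). Cgas was at 2730, 2661 and 2412, a log2 fold change of 0.17 (interval 0.02 to 0.32, adjusted p = 0.145). The lowest of these libraries lay inside the vehicle range and the other pair above it. Tbk1 spread widely, at 4863, 3901 and 3529 (-0.06, interval -0.28 to 0.16), as did Ikbke at 1039, 914 and 761 (0.10, -0.17 to 0.37) and Irf3 at 2169, 1879 and 1697 (0.11, -0.11 to 0.33). In all 3 of these genes GSK3368715 1 was the highest and GSK3368715 3 the lowest library, and without GSK3368715 3 the Tbk1 fold change was 0.04.

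**Figure D3:**
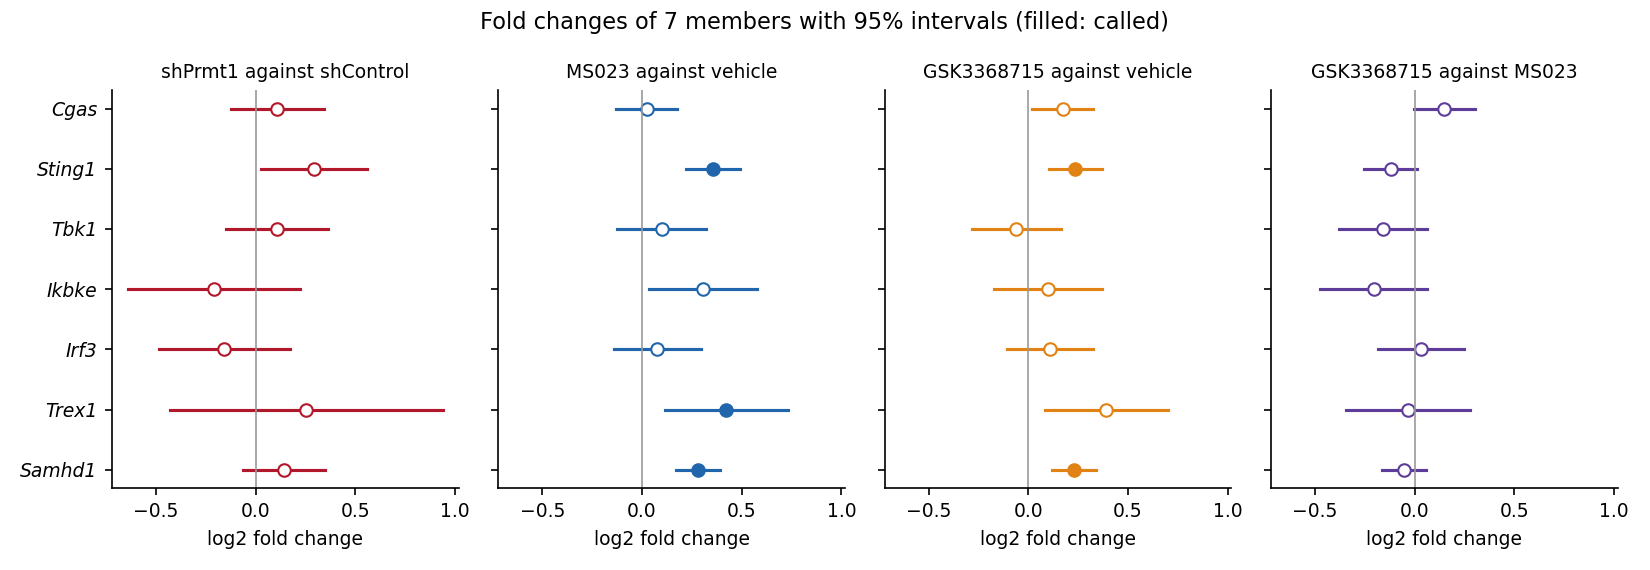
Log2 fold changes (x axis) of the 7 members tested with 95% intervals in 4 comparisons; filled points passed the adjusted threshold and open points did not. Filled points are Sting1, Trex1 and Samhd1 with MS023 and Sting1 and Samhd1 with GSK3368715, and no point is filled in the knockdown or between the inhibitors.

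When the inhibitors were compared directly, 0 of the 7 members differed by limma, by edgeR or by DESeq2, and 0 had an unadjusted p under 0.05 by any of the 3, while 0.515% of all genes were called. This was 1 pair of compounds at 1 matched dose and time, with p-values adjusted over all 13014 genes tested. As GSK3368715 minus MS023, the log2 difference was -0.12 for Sting1 (interval -0.25 to 0.01), -0.05 for Samhd1 (-0.16 to 0.06) and -0.03 for Trex1 (-0.34 to 0.28). For Sting1 the lower bound is at least as large as its rise with GSK3368715, and for Samhd1 and Trex1 the bounds are smaller than their fold changes with either compound. Cgas was at 0.15 (-0.005 to 0.30, adjusted p = 0.395), Tbk1 at -0.16 (-0.38 to 0.06), Ikbke at -0.21 (-0.48 to 0.06) and Irf3 at 0.03 (-0.19 to 0.25). A p that misses the threshold does not show that the compounds act alike on these genes.

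How the members varied together was described by Pearson's r over the 15 libraries, after each log2 value was centered on the control mean of its own experiment. Treated libraries of a group share a treatment, so the r values are given without a test. Irf3 and Ikbke followed each other most closely of the 21 pairs (r = 0.872), Cgas and Samhd1 came next (0.603), and Sting1 and Trex1 had 0.559. Cgas and Sting1, the sensor and the receptor, had r = -0.053. Of 11471 genes compared, the one most like Sting1 was Exosc10 (r = 0.963), followed by Cyb561d2 (0.946) and Crip2 (0.946). Samhd1 was most like Ash2l (0.955), Arhgap18 (0.948) and Zfp260 (0.936). Both Irf3 (0.956) and Ikbke (0.915) had Dennd6b in first place, with Arhgap45 (0.920) and Serhl (0.912) next for Irf3 and Stk25 (0.915) and Stx4a (0.888) for Ikbke. Tbk1 was nearest to Tgs1 (0.939), Hnrnph1 (0.874) and Taf2 (0.869), Cgas to Srsf3 (0.861), Phf6 (0.843) and Zfp78 (0.842), and Trex1 to Aldh4a1 (0.895), H2-K2 (0.875) and Pgpep1 (0.844).

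Around the members, 70 further genes of the pathway were read in 7 roles. In the knockdown 15 of the 63 that could be tested were called, 12 higher and 3 lower, where 14.7% of all genes were called and 7.5% were called higher. With MS023 it was 22 of 65, 13 higher and 9 lower (27.9% of all genes called, 13.7% higher), and with GSK3368715 13 of 65, 8 higher and 5 lower (9.64% and 5.16%). No test was made of the list against all genes. The list medians of 0.04, 0.03 and 0.03 on the log2 scale lay close to those of all genes. The role with the most calls in every comparison against control was the IRF3 target genes, with 6 calls each time, all higher. These 6 are part of the 15, 22 and 13 calls, so the list counts mix target genes with components of the pathway. Promoters of 2 target genes, Isg15 and Ifit1, are shown above. The counts moved with the processing: without shPrmt1 2 the knockdown count was 25 and with the replicate block 23, and without GSK3368715 3 the count for that compound was 8.

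Of the genes listed as IRF3 targets, Cxcl10, Ifit1, Ifit3, Isg15, Rsad2 and Oasl1 were called higher in the knockdown, with MS023 and with GSK3368715. The inhibitors shared their vehicle libraries. No group had Cgas or Sting1 removed, and whether the pathway drove these rises was not tested. These genes made up 6 of 8 tested in the knockdown, with a median log2 fold change of 0.96 over the 8. With MS023 and GSK3368715 they were 6 of 9, with medians of 0.61 and 0.80. Over all genes 7.5%, 13.7% and 5.16% were called higher in these comparisons. The list was chosen with earlier results of these data known, so its counts are a description and not a separate test. Rsad2, which encodes the antiviral enzyme viperin, went from 156, 148 and 161 normalized counts in shControl to 464, 507 and 532 in shPrmt1 (3.22-fold, log2 1.68, interval 1.46 to 1.91, adjusted p = 5.07e-05). Each treated library lay far above every control, shPrmt1 2 included. In the inhibitor experiment Rsad2 went from 4131, 2979 and 3818 in vehicle to 6822, 6967 and 6985 with MS023 (log2 0.94) and 6825, 7954 and 6445 with GSK3368715 (log2 0.97). Beside these rises, the summed level of the intestinal epithelial markers was 724 to 810 in shControl and 541 to 660 in shPrmt1, without overlap. Most of it was Krt18 (means of 572 and 431), while Krt20 was at 178 and 173. The sum of 4 fibroblast markers overlapped, at 33640 to 38400 in shControl and 30730 to 39690 in shPrmt1. Within it the means of Col1a1 (2116 in shControl, 4207 in shPrmt1) and Pdgfrb (242 and 391) were higher in shPrmt1. Those of Col1a2 (33525 and 31151) and Pdgfra (268 and 186) were lower. The part of these in the knockdown results was not tested.

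The chemokine gene Cxcl10 went from 132, 148 and 139 to 304, 362 and 301 in the knockdown (2.29-fold, log2 interval 0.93 to 1.46), and from a vehicle range of 1765 to 1982 to 2853 to 3401 with MS023 (log2 0.77) and 3788 to 4022 with GSK3368715 (log2 1.08). Ifit3 rose by 1.19, 1.06 and 1.07 on the log2 scale in the same 3 comparisons, Ifit1 by 0.94, 0.80 and 0.85, Isg15 by 0.99, 0.61 and 0.51, and Oasl1 by 0.70, 0.53 and 0.39. These fold changes were larger than those of any member in each comparison, with no test between genes, except that Oasl1 with GSK3368715 was near Trex1 (0.39). Ifit2, at 0.19, 0.04 and 0.17, and Ccl5, at -0.30, 0.25 and 0.15, were not called. Of the calls of these 6 genes, that of Isg15 with GSK3368715 was lost in 5 of 20 alternatives (no trend, the 2 groups alone, and removal of vehicle 3, GSK3368715 2 or GSK3368715 3, with adjusted p up to 0.0748), and the others were kept in every alternative computed. Ifnb1, the gene of interferon beta, was listed at 0 to 1.21 normalized counts in the knockdown experiment and was not tested there; it was at 8.25 to 10.999 in vehicle, 12.6 to 15.3 with MS023 (adjusted p = 0.258) and 11.9 to 25.9 with GSK3368715 (adjusted p = 0.191).

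Among other DNA sensors and partners of cGAS, 3 of 11 were called in the knockdown, all higher, where 7.5% of all genes were called higher. Mndal rose from 637 to 1196 normalized counts on average (log2 0.90, interval 0.66 to 1.15) and Ifi203 from 1257 to 2311 (log2 0.87, 0.64 to 1.10). Both are interferon-inducible genes of the HIN-200 family, whose members resemble each other and whose exons overlap here by 37 bp, so reads may be split between them. The third was Xrcc5, the Ku80 subunit (log2 0.44), which was also the 1 sensor gene called higher with MS023 (0.24) and is named after its values were seen. With the inhibitors neither Mndal (0.14 and 0.29) nor Ifi203 (0.14 and 0.22) was called. Aim2 and Ifi204, listed in the same role, were not called in any comparison with control. In the knockdown their means went from 438 to 534 and from 1392 to 1733, with an unadjusted p under 0.05 by limma for each. Among the genes called lower, Mre11a, a nuclease of double-strand break repair, fell by 0.44 on the log2 scale with MS023 and by 0.26 with GSK3368715, and Xrcc6, the Ku70 subunit, fell by 0.32 and 0.26. In the knockdown Mre11a (-0.24) and Xrcc6 (-0.21) were not called. With GSK3368715 the Mre11a call was lost in 10 of 20 alternatives (adjusted p up to 0.0935), among them no trend, the replicate block, the 2 groups alone and removal of vehicle 2 or 3, MS023 2 or 3 or any GSK3368715 library, and the Xrcc6 call in 3 of 20 (the 2 groups alone and removal of GSK3368715 2 or 3). The Xrcc5 call was lost without shControl 1 in the knockdown (adjusted p = 0.053) and without vehicle 2 or 3 or MS023 2 or 3 for that compound (adjusted p up to 0.0689).

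Of 9 genes for nucleic acid clearance and restraint of cGAS, Adar, an RNA-editing enzyme, was the 1 called in the knockdown (log2 0.44, interval 0.30 to 0.58). Over all genes 14.7% were called in the knockdown, 27.9% with MS023 and 9.64% with GSK3368715. MS023 gave 1 higher, the lysosomal nuclease gene Dnase2a (log2 0.71, interval 0.41 to 1.00, 1.63-fold), and 1 lower, Lsm11 of the histone pre-mRNA machinery (log2 -0.46). Lsm11 was also the 1 gene called with GSK3368715 (log2 -0.33). Of the 6 tested genes for cGAMP transport and hydrolysis, 1 was called in the knockdown, 2 with MS023 and 1 with GSK3368715, beside the same shares of all genes. Those called were all lower, and the direction of so few calls was not tested. Slc19a1, a folate carrier that can import cGAMP, fell by 0.45 with MS023 and 0.39 with GSK3368715 on the log2 scale, and was at -0.35 in the knockdown without passing the test (adjusted p = 0.0619). Lrrc8c fell by 0.25 in the knockdown and Lrrc8a, whose exons overlap those of Gm28035, fell by 0.27 with MS023; both encode subunits of the volume-regulated anion channel. The Lrrc8c call was lost in 8 of 16 alternatives (no filter, the same total, no trend, and removal of any library but shPrmt1 2, with adjusted p up to 0.165) and the Lrrc8a call in 4 of 20 (removal of vehicle 1 or 3 or MS023 1 or 2). The Lsm11 call with GSK3368715 was lost in 4 of 20 (the 2 groups alone and removal of vehicle 3 or GSK3368715 1 or 3).

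STING transport and lipidation had 1 of 11 called in the knockdown (Surf4, a cargo receptor, log2 -0.26), 2 with MS023 (the cholesterol transporter gene Npc1, 0.20, and the palmitoyltransferase gene Zdhhc3, -0.15) and 0 with GSK3368715, where 0 also had an unadjusted p under 0.05 by limma, edgeR or DESeq2, against 14.7%, 27.9% and 9.64% of all genes called. The Zdhhc3 call was lost in 13 of 20 alternatives, among them edgeR, the replicate block, the same total and removal of any vehicle or MS023 library, the Npc1 call in 6 of 20 (no trend and removal of any vehicle library or MS023 2 or 3), and the Surf4 call in 4 of 16 (no trend and removal of shControl 1 or 3 or shPrmt1 3).

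Among genes for ubiquitin control, Usp18, known chiefly as the protease that removes ISG15, rose from 329 to 1015 normalized counts in the knockdown (log2 1.63, interval 1.41 to 1.85) and from 8089 to 10870 with MS023 (0.46), and was at 0.51 with GSK3368715 without passing the test (adjusted p = 0.054). The Usp18 call with MS023 was lost in 10 of 20 alternatives, among them edgeR, the replicate block, the 2 groups alone and removal of vehicle 3 or any MS023 library, and without vehicle 2 the call was also lost and the fold change was 0.27. Rnf26, a ligase of STING whose exons overlap those of Gm49380, fell by 0.62 in the knockdown, a call lost without shControl 1 or 3. With MS023, Rnf26 (-0.30) and Usp20 (0.23) were called as well, both named after their values were seen, and the Usp20 call was lost in 6 of 20 alternatives (no trend, the 2 groups alone, and removal of vehicle 2 or 3 or MS023 1 or 3). Insig1, a sterol-regulated protein of the endoplasmic reticulum, rose from 7188 to 12923 with MS023 (log2 0.85) and to 9671 with GSK3368715 (0.42). Among TBK1 adaptors and NLR brakes, Tank rose in the knockdown (log2 0.39), a call lost without shControl 1 or 3 or shPrmt1 3. With MS023 Nlrc3 rose (0.64) and Nlrx1 fell by 1.31, and with GSK3368715 Nlrc3 rose (0.36) and Nlrx1 fell by 0.52. The last of these calls was lost in 11 of 20 alternatives (adjusted p up to 0.138), among them no trend, the replicate block (0.0845) and removal of vehicle 1 or 3, MS023 1 or any GSK3368715 library.

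**Figure D4:**
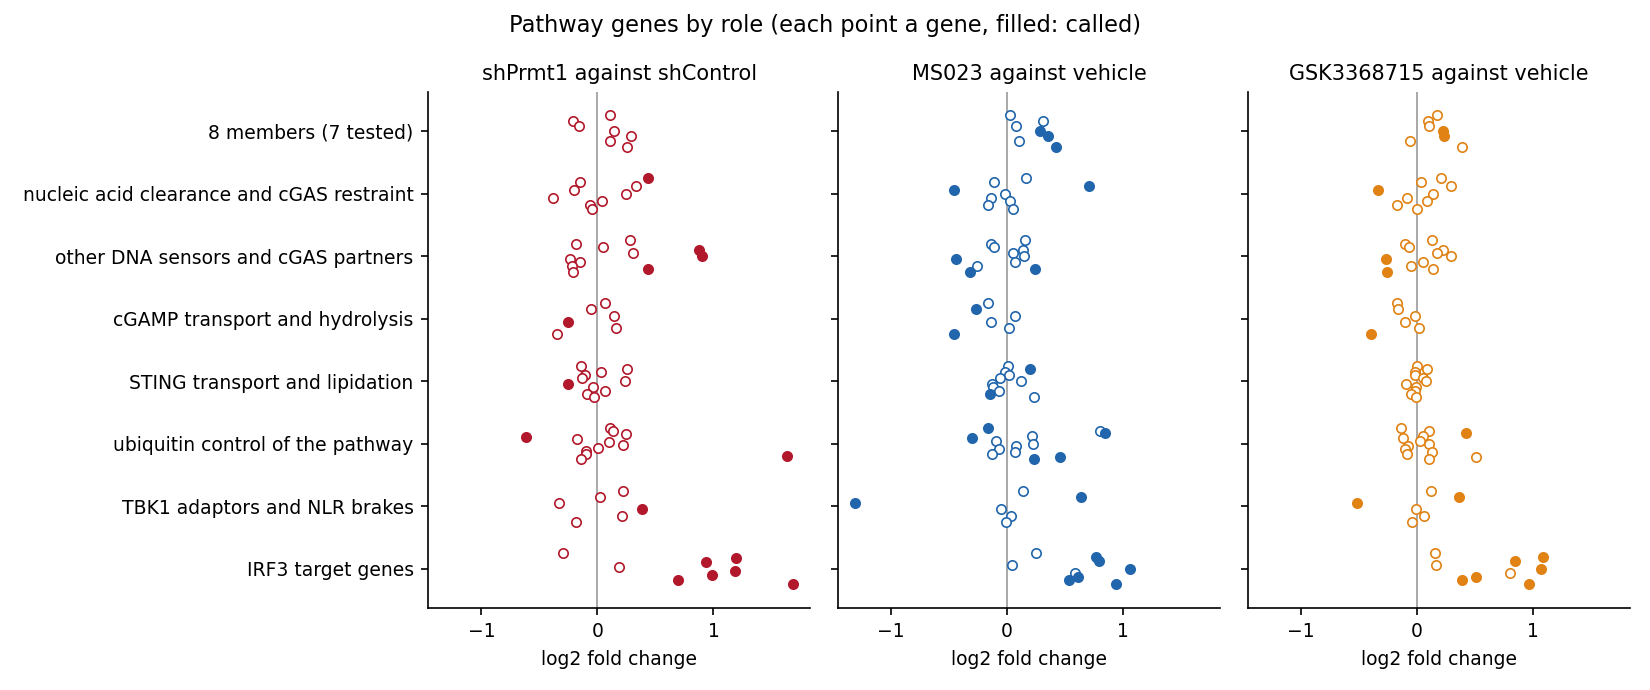
Log2 fold changes (x axis) of the members and of the wider pathway genes in 7 roles, for the 3 comparisons with control; each point is a gene that was tested, filled where it was called. The IRF3 target genes hold 6 filled points on the right in every panel, while the members lie between -0.21 and 0.42.

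Between the inhibitors, 2 of 65 wider genes were called, where 0.515% of all genes were called, and 39 of the 65 differences were positive. Nlrx1 was at 246, 322 and 226 normalized counts with MS023 and at 444, 465 and 448 with GSK3368715, below a vehicle range of 550 to 704 (difference 0.79, interval 0.48 to 1.10, adjusted p = 0.0396). Insig1 was at 13030, 13125 and 12613 with MS023 and at 9311, 10596 and 9107 with GSK3368715 (-0.42, interval -0.55 to -0.29, adjusted p = 0.0203). For both genes the GSK3368715 libraries lay between vehicle and MS023 without overlap. Both calls depended on single libraries: the Insig1 call was lost without GSK3368715 1 or 3 or any MS023 library (adjusted p from 0.0731 to 0.115) and the Nlrx1 call without vehicle 3 or any treated library (0.0548 to 0.173). None of the IRF3 target genes was called in this comparison by limma, in which differences ran from -0.14 for Oasl1 to 0.32 for Cxcl10, and Cxcl10 had an unadjusted p under 0.05.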

How the data were processed

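RNA-sequencing libraries of CT26 cells were read as paired ends by the authors, who quantified them with Salmon 1.4.0 on mm10 and used DESeq2, whose version was not given in the sources used here. The deposited values are a normalized signal, gene counts divided by DESeq2 size factors. In every library 100% of values were whole multiples of 1 constant (tolerance 0.001), from which whole reads were recovered. The authors' tables of fold changes and p-values were not used.

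A gene entered a fit when 3 or more of its libraries held 10 or more normalized counts. Tests were made with limma 3.58.1 (R 4.3.3; lmFit, eBayes with trend) on log2(normalized count + 1), a scale that understates changes of low genes. Tests were two-sided. The knockdown was fitted as 3 against 3 libraries and the 9 inhibitor libraries in 1 fit. Alternatives were edgeR 4.0.16 and DESeq2 1.42.0 on the recovered reads, other pseudocounts (0.5, 5), filters (none, 50), scalings, no trend, a replicate block, only the groups compared, and each library left out. Scripts were tested on simulated data. Levels between genes were divided by the length of all annotated exons, merged, of GENCODE M21, which held 34415 of 34432 IDs.

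The members and the gene lists were chosen with earlier results of these data known. From the wider list, the text names in each role and comparison the 2 genes with the largest change among those called, with a mean of at least 50 in the higher group and no overlap, and every IRF3 target gene. For each member, the 3 genes of highest r were named.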

Additional observations from a re-analysis of the deposited data

Results flagged for a closer look

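In all, 2 genes of the wider list were called in the contrast of GSK3368715 with MS023, in the fit of all 9 libraries. Over all genes 0.515% were called in that contrast. The difference was 0.7888 on the log2 scale for Nlrx1, an NLR protein of mitochondria, and -0.4211 for Insig1. The Nlrx1 call was lost in 12 of 20 alternatives and the Insig1 call in 7 of 20. For both, no trend and the replicate block were among these. No test for an outlying value was made within groups of 3 libraries.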

How the results depend on the processing

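Of 536 alternative values for the members, 497 kept their direction and their side of the threshold, 25 lost a call, 3 gained one and 11 changed sign. Of 1288 for the wider genes, 1165 kept both, 113 lost a call, 1 gained one and 9 changed sign. Only a value called in the main fit can lose a call, and most of the 536 for the members were not. Among the members called, the call was lost in 13 of 21 alternatives for Trex1 with MS023. With GSK3368715 it was lost in 8 of 20 for Sting1 and 4 of 20 for Samhd1. With MS023 it was lost in 0 of 20 for each of these 2 genes. The count of members called stayed at 0 to 1 for the knockdown when each library was left out, the 1 being Sting1 without shPrmt1 2, at 0 (without vehicle 3 or GSK3368715 1) to 2 for GSK3368715, and at 2 to 4 (without vehicle 1) for MS023. For GSK3368715 it was 1 with the replicate block and 0 with only the groups compared. The wider pathway count ran from 10 to 25 (without shPrmt1 2) in the knockdown and was 23 with the replicate block, and from 8 (without GSK3368715 3) to 14 for GSK3368715. Between the inhibitors the wider count was 1 with no filter, the same upper quartile or the same total, 0 with no trend or the replicate block, 4 with DESeq2, and 0 to 2 with a library left out.

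The following signs turned when a library was left out. In the knockdown Tbk1 ranged from -0.0102 to 0.1997, Irf3 from -0.2708 to 0.0112 and Trex1 from -0.0839 to 0.4771. With MS023 Cgas ranged from -0.0201 to 0.0644, Irf3 from -0.0024 to 0.1582 and Ifit2 from -0.002 to 0.0906. With GSK3368715 Tbk1 ranged from -0.19 to 0.0412, Ikbke from -0.0091 to 0.218 and Prmt1 from -0.0388 to 0.0315 (0.0025 with the same total). Between the inhibitors Irf3 ranged from -0.0623 to 0.1146, Trex1 from -0.0832 to 0.0023, Rsad2 from -0.0621 to 0.0896, Ifit1 from -0.0135 to 0.0855, Ifnb1 from -0.0846 to 0.4462 and Ifit3 from -0.1142 to 0.1057 (-0.0003 with the same upper quartile, -0.013 with the same total).

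Over all genes, calls rose from 1684 to 2671 with the replicate block in the knockdown and to 2472 without shPrmt1 2, and fell from 1254 to 597 with GSK3368715 when only the groups compared were fitted. Between the inhibitors they went from 67 to 8 with no trend, 4 with the replicate block and 365 with DESeq2. The labels of same-numbered libraries share a number and do not say whether they were handled together. Correlations of their deviations in the knockdown were 0.061, 0.116 and 0.081, each higher than with other numbers (at most -0.023, -0.054 and 0.033). Those of the inhibitor groups had mixed signs. Whether libraries of the same number shared a batch was not tested. The causes of these changes were not tested. Rescaling moved the median of all genes by at most 0.0346. At 0 to 2 reads per library Enpp1 could not be compared, and Trex1 in the knockdown rested on 35 to 102 reads.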
